A study of Homo sapiens with 6 samples.

Results

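The CLK kinases and the SR proteins act on pre-mRNA splicing, and their mRNAs were followed in HT-29 tumours after heating by an electromagnetic field. The members were CLK1 and CLK4, a pair of nuclear kinases, and the SR splicing factors SRSF1, SRSF2, SRSF3, SRSF5, SRSF6, SRSF7, SRSF10 and SRSF11. Every probe set whose platform annotation names one of these 10 genes, by its current or its older symbol, was taken. The annotation names 21357 genes in all, and the 10 members had 40 probe sets of 54675 on the array, 5 for the CLK genes and 35 for the SR genes. Of the 40, 27 lay at or above 5 on the log2 scale on average over the arrays and 13 lay below it. The rule that picked the probe sets used the annotation alone, but the 10 genes were chosen with earlier results of these data known.

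HT-29 is an established human colorectal adenocarcinoma cell line. It was grown as a tumour on either side, in the femoral regions, of Balb/c (nu/nu) mice aged 6 to 8 weeks at injection. Nude mice lack mature T cells but keep other leukocytes, vessels and connective tissue. Treated tumours received modulated electro-hyperthermia, a heating by an electromagnetic field, for 30 min on day 18 after injection and were sampled 4 h later. Opposite-side tumours were the unheated tumours of the treated animals, and control tumours came from control animals. For each of the 3 groups the RNA was 1 pool, whose number of animals is not given in the sources used here, hybridised to 2 human 1-colour arrays that the labels call technical replicates. Each ± below is therefore an SD over 2 arrays, or for a difference the SD propagated from those of both pools, and no test between conditions was possible.

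SR proteins bind pre-mRNA through RNA recognition motifs and recruit the spliceosome through a domain rich in arginine and serine, the RS domain. Many of them bind exonic enhancers and favour inclusion of the exon. CLK kinases in the nucleus and SRPK kinases, mainly in the cytoplasm, phosphorylate the RS domain, and this controls where SR proteins sit and whether they are active. Heat shock is known to remove phosphate from SRSF10 (SRp38), which then represses splicing, and CLK1 and CLK4 transcripts are known to be kept in the nucleus with introns retained and to be spliced on stress. Most SR genes also carry a highly conserved poison exon or intron whose inclusion sends the transcript to nonsense-mediated decay, so that a single SR gene yields protein-coding and non-coding RNAs that different probe sets may see.

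Promoter sequences are shown for CLK1, CLK4 and SRSF10, because heat shock genes are turned on through the heat shock element, an element that was looked for in these windows. Each line gives the 250 bases before a gene start annotated in RefSeq (GRCh38.p14), the first listed of 2 for CLK1, read 5′ to 3′ on the gene's strand, which is the minus strand for all 3. They lie at chr2:200864659-200864908, chr5:178627051-178627300 and chr1:23980328-23980577. All letters are in lower case because no motif was found to mark.
CLK1: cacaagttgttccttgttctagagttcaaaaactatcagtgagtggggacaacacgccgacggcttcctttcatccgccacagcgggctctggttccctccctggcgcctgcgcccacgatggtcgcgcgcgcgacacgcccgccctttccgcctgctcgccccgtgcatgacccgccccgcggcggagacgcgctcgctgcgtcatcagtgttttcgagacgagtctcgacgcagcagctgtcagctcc
CLK4: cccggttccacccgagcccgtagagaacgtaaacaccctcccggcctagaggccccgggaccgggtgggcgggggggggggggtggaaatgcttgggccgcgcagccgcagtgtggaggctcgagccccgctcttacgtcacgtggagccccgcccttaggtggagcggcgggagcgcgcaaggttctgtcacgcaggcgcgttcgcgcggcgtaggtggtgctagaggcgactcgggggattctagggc
SRSF10: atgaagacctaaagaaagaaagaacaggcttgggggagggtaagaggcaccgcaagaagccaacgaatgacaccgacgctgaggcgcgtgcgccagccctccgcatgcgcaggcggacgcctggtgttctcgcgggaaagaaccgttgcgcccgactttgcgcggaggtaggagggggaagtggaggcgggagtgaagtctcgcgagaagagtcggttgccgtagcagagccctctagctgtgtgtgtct

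The motif was a pair of heat shock element units, GAANNTTC or TTCNNGAA, each of which reads the same on both strands. Over windows of 300 bases, 250 before the start and 50 after it, 0 of 12 windows of 9 members held a match. The share was 13.5% among all 35116 such RefSeq windows. HSPA6 and DNAJB1, a pair of heat-induced chaperone genes, had up to 3 matches in a window, while the windows of BAG3 and HSPH1 had 0. A window without a match says only that these letters are not in it.

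The pools were told apart by their heat shock genes. HSPA6, an HSP70 chaperone made almost only under stress, averaged 8.71 in treated, 5.82 in opposite-side and 4.85 in control tumours, and DNAJB1, HSPH1 and BAG3 were higher by 1.86 to 1.91 in treated than in control tumours. Colon epithelial genes were present, with 10 of 13 markers at or above 5 on average, while CDX1, CDX2 and GPA33 lay below 5 in every pool. The summed level of 8 fibroblast and matrix markers (linear scale) was 792 to 805 in treated tumours, 667 to 682 in opposite-side tumours and 358 to 395 in control tumours, with 4 of the 8 at or above 5 on average and COL1A2, DCN and LUM below 5 in every pool. Of those 4, TAGLN, VIM and COL1A1 were higher by 1.66, 1.14 and 0.67 in treated than in control tumours, and FN1 differed by 0.01. Among 9 skeletal muscle markers, 3 of them at or above 5 on average, ACTA1 measured 5.27 in treated, 4.11 in opposite-side and 3.10 in control tumours and MYL11 6.65, 5.89 and 5.05, while TNNT1 measured 6.69, 6.82 and 7.13 in the same order and MYL1, MYH1, MYH2, CKM and DES lay below 5 in every pool. The summed muscle level was 312 to 323 in treated, 262 to 263 in opposite-side and 252 to 259 in control tumours. The arrays are human and the host tissue is from mice. Whether the fibroblast, matrix and muscle probe sets read RNA of the host or of the HT-29 cells was not tested. The 40 probe sets for spiked-in RNA differed by a median of 0.11 (treated minus control), 0.33 (treated minus opposite) and -0.18 (opposite minus control). The 5′ probe set of ACTB, whose loss relative to the 3′ one can mark RNA quality, differed by 1.12, -0.16 and 1.28 in the same order, against 0.23, 0.08 and 0.15 for the 3′ one. For GAPDH the 5′ probe set differed by -0.46, -0.45 and -0.01, against -0.03, -0.03 and 0.0005 for the 3′ one. The 5′ signal was thus lowest in control tumours for ACTB and in treated tumours for GAPDH. The part of stroma, muscle, spike-in scaling and RNA quality in the differences below was not tested. In such bulk RNA, fewer cells of a type and less RNA per cell cannot be told apart.

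Differences between pools were small at most member probe sets. The 2 arrays of a pool differed by a median of 0.05 over the 27 members in each of the 3 pools and at most by 0.26. The members' median absolute difference was 0.20 in treated against control tumours, where it was 0.15 over all probe sets at or above 5. It was 0.17 in treated against opposite-side tumours (0.13 over all) and 0.19 in opposite-side against control tumours (0.15 over all). A probe set was counted as higher or lower past 0.5 (1.41-fold) or past 1 (2-fold) when the means of the pools lay that far apart on the log2 scale, the arrays of the pools did not overlap, and the higher pool reached 5 on each of its arrays.

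In treated against control tumours, 0 of the 27 members passed 1, where 0.859% of all 12340 probe sets at or above 5 did. SRSF6 206108_s_at and SRSF10 225348_at were higher past 0.5, which is 7.41% of the members against 3.89% of all probe sets. SRSF1 226419_s_at was lower past 0.5, 3.70% of the members against 3.60%. The members' counts past 0.5 thus rest on 2 and 1 probe sets. Without a minimum size, 20 members (74.1%) were higher in all 4 array pairs, against 34.0% of all probe sets, and 3 members (11.1%) were lower, against 40.5%. The median difference was 0.19 over the members and -0.02 over all probe sets, and 22 of 27 members lay above 0. SRSF1 227164_at reached the mean of 5 only through the treated pool, and without it 19 of 26 members were higher in all array pairs, 21 lay above 0 and the median was 0.17.

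Against the opposite side, treated tumours had 1 member past 1, SRSF10 225348_at, which is 3.70% of the members where 0.373% of all probe sets passed. Past 0.5, SRSF6 206108_s_at, SRSF7 201129_at and SRSF10 225348_at were higher (11.1%, against 3.35% of all probe sets) and SRSF1 201742_x_at was lower (3.70%, against 2.30%). When the arrays were set to the same spike-in median, which shifted all probe sets by -0.19 in this comparison, 2 were higher and 3 lower, with SRSF7 201129_at gone and SRSF11 200686_s_at and SRSF10 213594_x_at lower. This scaling equates the median over the spike-in probe sets on each array, so it need not remove the median of their differences, 0.33 here. Without a minimum size, 14 members (51.9%) were higher in all array pairs, against 36.4% of all probe sets, and 10 members (37.0%) were lower, against 34.5%. Without SRSF1 227164_at, 13 of 26 were higher in all array pairs. The members' median was 0.02 and that of all probe sets 0.00. These directions turned under spike-in scaling, with 6 of 27 members above 0, 6 higher (22.2%, against 12.7% of all probe sets) and 19 lower in all array pairs (70.4%, against 69.9%), and medians of -0.17 over the members and -0.19 over all probe sets.

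Opposite-side tumours differed from control tumours by less than 1 at every member probe set, a size that 0.478% of all probe sets reached. SRSF1 201742_x_at and SRSF11 200685_at were higher past 0.5 (7.41%, against 2.64% of all probe sets), and SRSF1 226419_s_at was lower (3.70%, against 4.29%). Spike-in scaling shifted all probe sets by 0.18 here and gave 4 higher and 0 lower, with SRSF1 226419_s_at gone and CLK4 210346_s_at and SRSF10 204299_at added. Without a minimum size, 16 members (59.3%) were higher in all array pairs, against 34.2% of all probe sets, and 8 (29.6%) were lower, against 40.8%. The median was 0.15 over members and -0.02 over all probe sets, and under spike-in scaling 0.33 over members and 0.16 over all probe sets. The comparisons share pools, so they are not independent of each other. Single probe sets are described below as deposited unless another scaling is named. Spike-in scaling shifts each of them by the same amount as all probe sets.

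**Figure D1:**
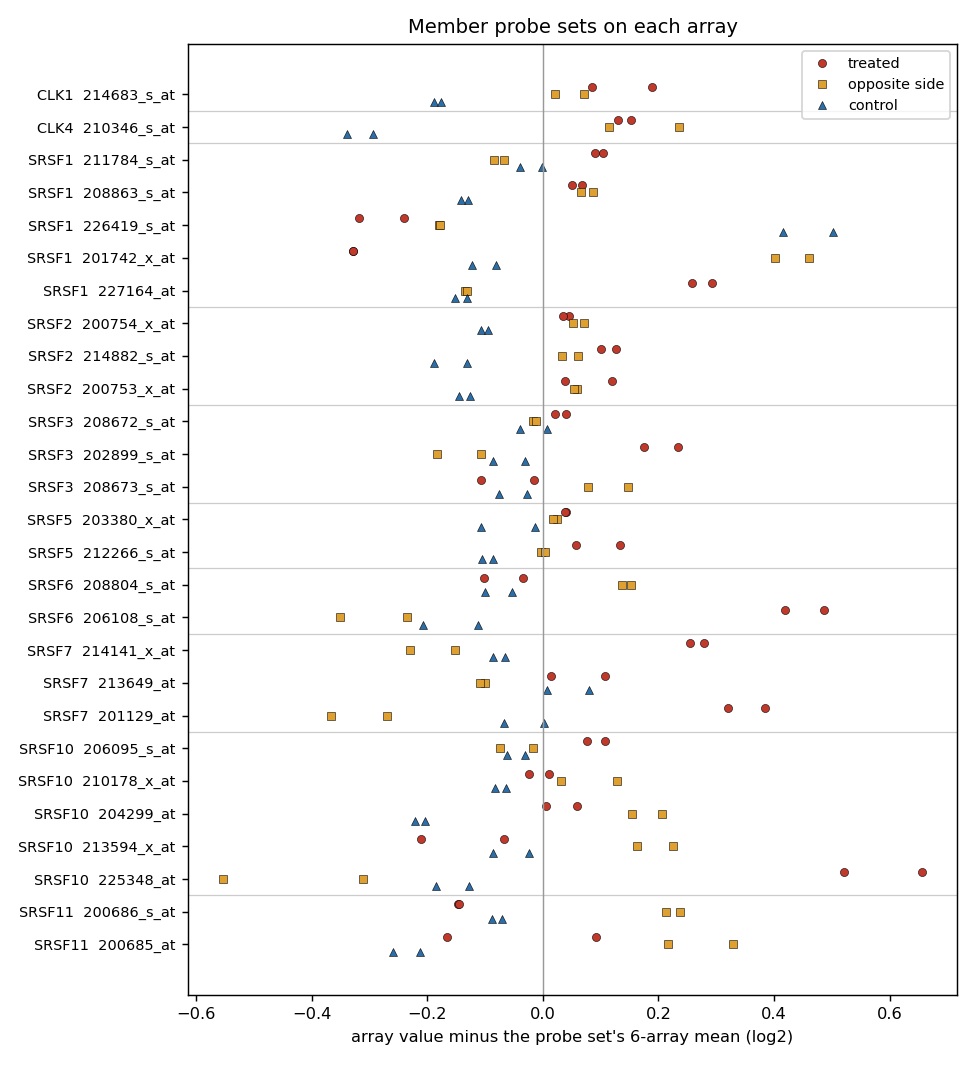
Each row is 1 of the 27 member probe sets at or above 5, and the x axis gives the value of each of the 6 arrays minus the mean of that probe set over the arrays (log2). Control arrays lie left of treated arrays in 20 rows, and SRSF10 225348_at has the treated arrays farthest right.

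CLK1 and CLK4 were higher on both sides of the treated animals than in control tumours. CLK1, which phosphorylates SR proteins and frees them from nuclear speckles, has 1 probe set, 214683_s_at. It measured 7.85 and 7.96 in treated tumours and 7.84 and 7.79 in opposite-side tumours, against 7.58 and 7.59 in control tumours. The control arrays lay below the other 4, and the treated arrays lay just above those of the opposite side. The difference was 0.32 ± 0.07 (1.25-fold) in treated against control tumours, 0.09 ± 0.08 in treated against opposite-side tumours, and 0.23 ± 0.04 (1.17-fold) in opposite-side against control tumours. None of these sizes reached 0.5. Under spike-in scaling CLK1 was lower in treated than in opposite-side tumours (-0.10), and its opposite-side minus control difference was 0.40.

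CLK4, a close relative of CLK1 with the same kind of substrates, had the larger differences from control. Probe set 210346_s_at measured 6.42 and 6.40 in treated tumours and 6.51 and 6.38 in opposite-side tumours, against 5.98 and 5.93 in control tumours. Treated and opposite-side arrays overlapped, and both stood above the control arrays. Treated exceeded control tumours by 0.46 ± 0.04 (1.37-fold) and opposite-side exceeded control tumours by 0.49 ± 0.09 (1.41-fold), just under the minimum of 0.5, while treated and opposite-side tumours differed by -0.03 ± 0.09. The opposite-side difference passed 0.5 once the arrays were quantile normalized or set to the same median or the same spike-in median. Under spike-in scaling treated minus opposite was -0.22. A second CLK4 probe set, 228751_at, averaged below 5, near background, where a log2 difference is poorly determined. Its differences were nearly the same, 0.45 ± 0.15 for treated minus control and 0.48 ± 0.14 for opposite minus control. For treated minus opposite it gave -0.03 ± 0.18. CLK4 241403_at overlapped between the pools in every comparison, and CLK4 1568836_at was at the lowest value of the table, 2.37, on every array.

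SRSF10 held the 1 member probe set past 1. Its product is the splicing repressor activated by loss of phosphate under heat. Probe set 225348_at measured 6.51 and 6.65 in treated tumours and 5.44 and 5.68 in opposite-side tumours, against 5.86 and 5.80 in control tumours. The treated arrays stood clear of the others, and the opposite-side arrays were the lowest. Treated exceeded opposite-side tumours by 1.02 ± 0.20 (2.03-fold) and control tumours by 0.75 ± 0.10 (1.68-fold), and opposite-side minus control was -0.28 ± 0.18. The difference against the opposite side rests on 2 arrays a pool: without treated replicate 2 or without opposite replicate 1 it was below 1. It also fell below 1 under quantile normalization, with arrays set to the same median, and with spike-in scaling, which gave 0.83.

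The other 4 SRSF10 probe sets at or above 5 did not share that size. Probe set 206095_s_at measured 8.26 and 8.23 in treated, 8.13 and 8.08 in opposite-side and 8.12 and 8.09 in control tumours, so treated arrays were higher by 0.14 ± 0.03 than control arrays. Probe set 204299_at measured 6.82 and 6.76 in treated, 6.91 and 6.96 in opposite-side and 6.54 and 6.55 in control tumours, which put the opposite side highest, by 0.39 ± 0.04 over control. Probe set 213594_x_at was lower in treated than in opposite-side tumours (-0.33 ± 0.11) and overlapped with control, and 210178_x_at differed by -0.09 ± 0.07 in treated against opposite-side tumours and by 0.15 ± 0.07 in opposite-side against control tumours. Probe sets that all name SRSF10 thus differed in direction against the opposite side.

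SRSF6, an SR protein that binds exonic enhancers, showed the same kind of split. Probe set 206108_s_at measured 7.55 and 7.62 in treated tumours and 6.90 and 6.79 in opposite-side tumours, against 6.93 and 7.02 in control tumours. Treated arrays were highest, and the other pools lay close together. The difference was 0.61 ± 0.08 (1.53-fold) against control and 0.75 ± 0.09 (1.68-fold) against the opposite side. Probe set 208804_s_at measured 9.37 and 9.30 in treated tumours and 9.56 and 9.54 in opposite-side tumours, against 9.35 and 9.31 in control tumours. Here treated and control arrays overlapped (0.01 ± 0.06), and the opposite side was higher than control by 0.22 ± 0.03.

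SRSF7 (9G8), which takes part in splicing and in mRNA export, was highest in treated tumours at 2 of its 3 probe sets at or above 5. Probe set 201129_at measured 7.20 and 7.26 in treated tumours and 6.61 and 6.51 in opposite-side tumours, against 6.88 and 6.81 in control tumours. All 3 pools were separate, with the opposite side lowest. Treated exceeded opposite-side tumours by 0.67 ± 0.08 (1.59-fold) and control tumours by 0.39 ± 0.07 (1.31-fold). Probe set 214141_x_at gave the same order, with 9.41 and 9.39 in treated, 8.90 and 8.98 in opposite-side and 9.07 and 9.04 in control tumours. Its treated minus opposite difference was 0.46 ± 0.06 and its treated minus control difference 0.34 ± 0.02. Probe set 213649_at overlapped between treated and control tumours (0.02 ± 0.08), and the opposite side was lowest, treated minus opposite being 0.17 ± 0.07. Under spike-in scaling its treated minus opposite difference was -0.02 and its opposite minus control difference 0.03. With that scaling, opposite minus control was 0.06 at 214141_x_at and -0.11 at 201129_at, so the opposite side stayed lowest only at 201129_at.

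SRSF3 (SRp20), the smallest member of the classical family and also an export adaptor, differed little at its brightest probe set. Probe set 208672_s_at measured 9.90 and 9.89 in treated, 9.85 and 9.85 in opposite-side and 9.87 and 9.82 in control tumours, and all its differences lay within 0.05. Probe set 202899_s_at measured 8.26 and 8.32 in treated tumours and 7.98 and 7.90 in opposite-side tumours, against 8.05 and 8.00 in control tumours. Treated arrays were the highest, by 0.35 ± 0.07 over the opposite side and 0.26 ± 0.06 over control. Probe set 208673_s_at overlapped between treated and control tumours (-0.01 ± 0.07) and was higher on the opposite side.

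**Figure D2:**
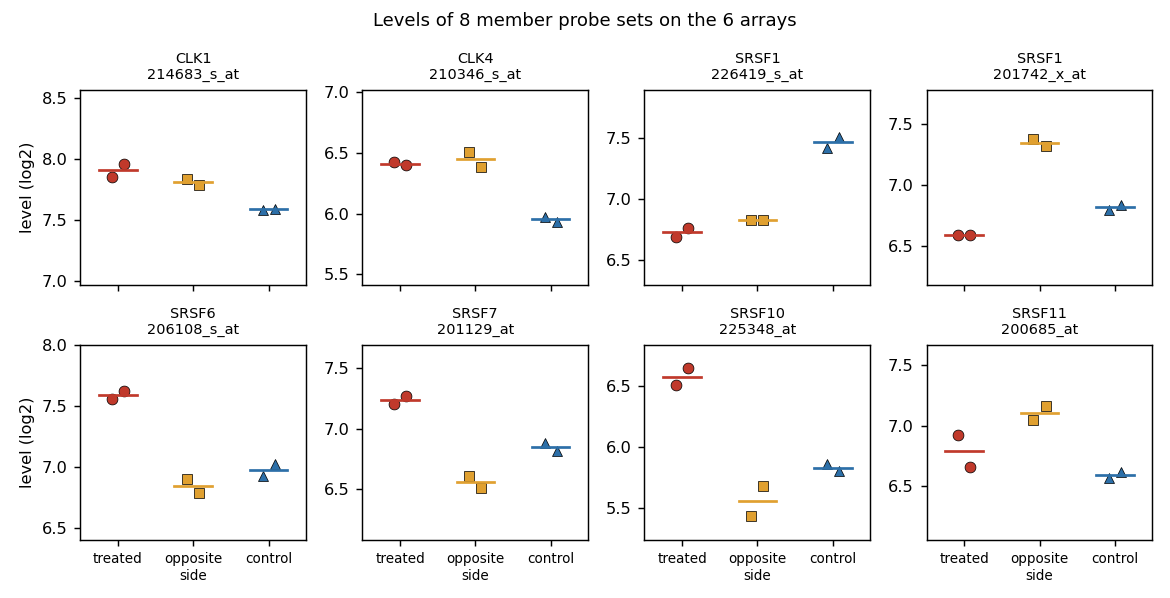
Levels (log2, y axis, each panel spanning the same range of 1.6 around its own centre) of 8 member probe sets on the 2 arrays of the treated, opposite-side and control pools, with a line at each pool mean. SRSF10 225348_at and SRSF6 206108_s_at are highest in treated tumours, CLK4 210346_s_at is lowest in control tumours, and SRSF1 226419_s_at is highest in control tumours.

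SRSF1 (ASF/SF2), the founding SR protein, which promotes use of proximal splice sites and exon inclusion, had probe sets that moved in opposite directions. The brightest one, 211784_s_at, measured 10.76 and 10.78 in treated tumours and 10.59 and 10.60 in opposite-side tumours, against 10.63 and 10.67 in control tumours. Treated arrays were the highest, but by only 0.12 ± 0.03 over control. Probe set 226419_s_at measured 6.69 and 6.76 in treated tumours and 6.83 and 6.83 in opposite-side tumours, against 7.42 and 7.51 in control tumours. Both sides of the treated animals lay below control, by -0.74 ± 0.08 (1.67-fold lower) in treated and -0.64 ± 0.06 (1.56-fold lower) in opposite-side tumours.

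SRSF1 201742_x_at set the opposite side apart. It measured 6.59 and 6.59 in treated tumours and 7.38 and 7.32 in opposite-side tumours, against 6.80 and 6.84 in control tumours. Treated arrays were lowest and opposite-side arrays highest, with differences of -0.76 ± 0.04 (1.69-fold lower) for treated minus opposite, 0.53 ± 0.05 (1.45-fold) for opposite minus control and -0.23 ± 0.03 for treated minus control. Probe set 227164_at measured 5.39 and 5.36 in treated tumours and 4.96 and 4.97 in opposite-side tumours, against 4.95 and 4.97 in control tumours, a difference of 0.42 ± 0.03 against control, with only the treated pool above 5. Probe set 208863_s_at was higher than control on both sides, by 0.20 ± 0.02 in treated and 0.21 ± 0.02 in opposite-side tumours. Over these 5 probe sets the treated minus control differences lay between -0.74 and 0.42, and between -0.74 and 0.20 without 227164_at.

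SRSF2 (SC35), the protein commonly used to mark nuclear speckles, was slightly higher on both sides of the treated animals than in control tumours. Its 3 probe sets all also name MIR636, a microRNA gene that lies within SRSF2, so their values belong to both annotations. Probe set 214882_s_at measured 9.58 and 9.60 in treated tumours and 9.54 and 9.51 in opposite-side tumours, against 9.34 and 9.29 in control tumours. Treated minus control was 0.27 ± 0.04 there, 0.21 ± 0.06 at 200753_x_at and 0.14 ± 0.01 at 200754_x_at, and opposite minus control was 0.21 ± 0.05, 0.19 ± 0.01 and 0.16 ± 0.02 at the same probe sets. As deposited, treated and opposite-side tumours differed by less than 0.1 at each of them. Under spike-in scaling treated minus opposite was -0.12, -0.17 and -0.21 in the same order of probe sets. Opposite minus control was then 0.38, 0.37 and 0.34.

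SRSF5 (SRp40), an SR protein linked to growth and insulin signalling, hardly differed. Probe set 203380_x_at measured 8.75 and 8.74 in treated, 8.73 and 8.72 in opposite-side and 8.60 and 8.69 in control tumours, and 212266_s_at measured 8.74 and 8.66 in treated, 8.60 and 8.61 in opposite-side and 8.52 and 8.50 in control tumours. Control arrays were lowest at both, and treated tumours exceeded them by 0.10 ± 0.07 and 0.19 ± 0.06.

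SRSF11 (p54), an SR-like protein that interacts with the U2AF splicing factor, was highest on the opposite side. Probe set 200686_s_at measured 9.38 and 9.38 in treated tumours and 9.74 and 9.77 in opposite-side tumours, against 9.46 and 9.44 in control tumours. The opposite side exceeded control by 0.30 ± 0.02, and treated tumours were lower than the opposite side (-0.37 ± 0.02). Probe set 200685_at measured 6.92 and 6.66 in treated tumours and 7.05 and 7.16 in opposite-side tumours, against 6.57 and 6.62 in control tumours. Its opposite-side arrays were again the highest, by 0.51 ± 0.09 over control (1.42-fold), and its treated arrays differed by 0.26, the widest gap between the arrays of a pool among the 27 members.

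Of the 13 probe sets with a mean below 5, most carried no measurable difference. CLK4 1568836_at and SRSF3 237485_at sat at 2.37 on every array, and SRSF1 239384_at, SRSF1 201741_x_at and SRSF11 236948_x_at had pool means within 0.1 of each other. SRSF1 229246_at measured 3.60 and 3.81 in treated tumours and 4.55 and 4.21 in opposite-side tumours, against 4.32 and 4.70 in control tumours. SRSF11 213742_at measured 3.77 and 4.14 in treated tumours and 4.27 and 4.17 in opposite-side tumours, against 4.64 and 4.84 in control tumours. SRSF3 232392_at measured 4.54 and 4.61 in treated tumours and 4.91 and 5.23 in opposite-side tumours, against 5.01 and 4.96 in control tumours. At all 3 the treated arrays were the lowest, where values are near background and a log2 difference is poorly determined. SRSF3 235324_at, SRSF5 210077_s_at, SRSF7 211439_at and CLK4 241403_at differed by at most 0.19 in any comparison.

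**Figure D3:**
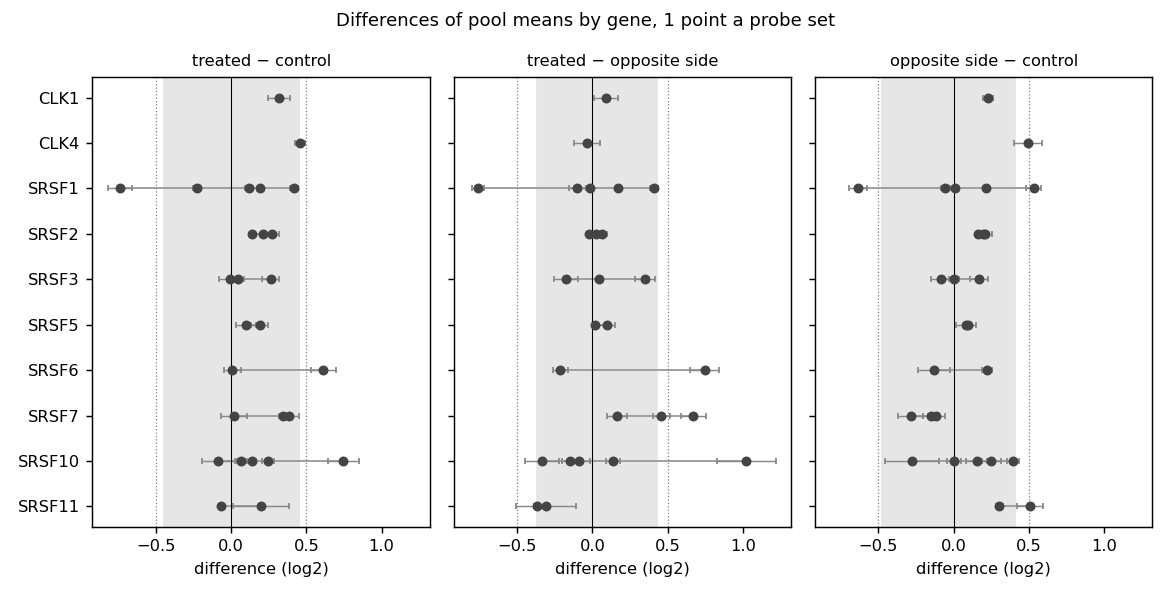
Differences of pool means (log2, x axis) in the 3 comparisons for the 27 member probe sets at or above 5, grouped by gene, with the SD propagated from 2 arrays a pool; the grey band holds the central 90% of all 12340 probe sets and dotted lines mark 0.5 in size. SRSF1 and SRSF10 spread widest, and the SRSF2 and SRSF5 probe sets lie close together.

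Probe sets of the same gene lay far apart in several SR genes, which is given as a description with no test. The 8 SR genes with several probe sets at or above 5 gave 32 pairs, and 2309 other genes gave 5045 pairs. The gap between the treated minus control differences of a pair had a median of 0.29 in the SR genes and 0.17 in the other genes, and reached 0.5 in 31.2% and 8.84% of pairs. For treated minus opposite the medians were 0.29 in the SR genes and 0.16 in the others, and 37.5% and 7.93% of pairs reached 0.5. For opposite minus control the medians were 0.24 in the SR genes and 0.15 in the others, and 25.0% and 7.79% reached 0.5. The SRSF1 pairs include those with 227164_at, which reached the mean of 5 only through the treated pool. The shares of pairs were not computed without that probe set. SRSF1 and SRSF10 supply 20 of the 32 pairs, and pairs of a gene share probe sets.

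Without those 2 genes, 12 pairs of 6 genes had medians of 0.17, 0.22 and 0.11 in the same order of comparisons, and 8.33%, 25.0% and 0.00% of pairs reached 0.5. The wide gaps of treated against control were therefore those of SRSF1, SRSF10 and SRSF6, with a range over probe sets of 1.16 (with 227164_at), 0.83 and 0.60. SRSF2 and SRSF5 ranged over only 0.13 and 0.09. Which exons, introns or 3′ ends each probe set reads was not examined, so a gap cannot be assigned to a transcript form. Probe sets ending in _s_at and _x_at may also bind RNA of other genes, which is a property of their design.

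**Figure D4:**
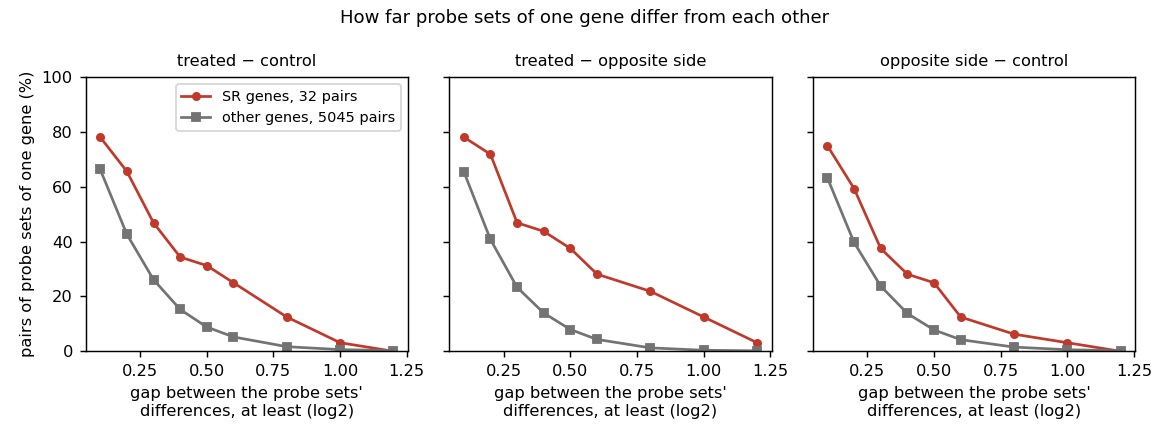
Share of pairs of probe sets of the same gene (percent, y axis) whose differences lie at least the given log2 gap apart (x axis), for 32 pairs of SR genes and 5045 pairs of other genes in the 3 comparisons. The SR curve lies above that of the other genes up to a gap of 1 in each panel. At a gap of 1 it rests on 1, 4 and 1 pairs in treated minus control, treated minus opposite and opposite minus control. The 1 pair of treated minus control includes SRSF1 227164_at, which reached the mean of 5 only through the treated pool. The shares were not computed without that probe set.

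Other splicing gene lists were set beside the members. With 1 probe set a gene, the brightest, the 10 members had a median treated minus control difference of 0.13, and 0 of them passed 0.5, where 3.90% of 7004 genes were higher and 2.67% lower and the median of all was -0.01. The other RS-domain kinases gave a median of -0.05 in treated against control tumours, and 0 of their 5 genes at or above 5 passed 0.5 in any comparison. CLK2 and CLK3, the remaining CLK kinases, differed by -0.13 and -0.15 in treated against control tumours and by -0.26 and -0.27 in opposite-side against control tumours, and SRPK1, the cytoplasmic SR kinase, differed by 0.09 and -0.12. CLK1 and CLK4 thus lay above control on both sides and CLK2 and CLK3 below it, a contrast that was not tested. The further SR proteins SRSF4 and SRSF8 differed by 0.08 and 0.01 in treated against control tumours.

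Among 30 SR-related genes, 1 was higher and 2 were lower past 0.5 in treated against control tumours, and the median was -0.06. TRA2A, an activator of exon inclusion, measured 8.86 and 8.88 in treated tumours and 8.83 and 8.80 in opposite-side tumours, against 8.33 and 8.32 in control tumours, a difference of 0.55 in treated and 0.49 in opposite-side tumours. CCNL2, a cyclin of nuclear speckles, and LUC7L3, a factor of the U1 particle, were lower in treated than in control tumours, with differences of -0.55 and -0.53. In opposite-side against control tumours, LUC7L and LUC7L3 were lower (-0.66 and -0.52), where 3.91% of all genes were lower and 2.36% higher, and the median was -0.10. In treated against opposite-side tumours 0 passed 0.5, where 3.06% of all genes were higher and 1.68% lower, the largest difference being that of SRRM2, a speckle scaffold, at 0.47.

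The hnRNP proteins, which often oppose SR proteins at exons, had 1 of 22 genes past 0.5, SYNCRIP at 0.51 in treated against control tumours, none in the other comparisons, and a median of 0.05. HNRNPA1, an exon silencer, differed by -0.32 and HNRNPA2B1 by 0.35. Of 29 core spliceosome genes, 0 passed 0.5 in treated against control tumours and the median was -0.08. SF3A2, a subunit of the U2 particle, measured 5.75 and 5.81 in treated tumours and 5.09 and 5.08 in opposite-side tumours, against 6.24 and 6.22 in control tumours. Its difference was -1.15 in opposite-side against control tumours and 0.70 in treated against opposite-side tumours, the 1 gene of these splicing lists past 1 in a comparison.

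Nuclear stress bodies form on satellite RNA in heated human cells and gather SR proteins, SAFB and TARDBP. Of 6 genes of nuclear bodies at or above 5, 0 passed 0.5 in treated against control tumours. TARDBP differed by 0.40 and SAFB by -0.33, and SAFB was lower past 0.5 in opposite-side against control tumours (-0.51). Nonsense-mediated decay, which removes poison-exon transcripts, had 3 genes at or above 5, and SMG5, UPF2 and UPF1 differed by 0.34, 0.15 and 0.13 in treated against control tumours, all below 0.5.

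**Figure D5:**
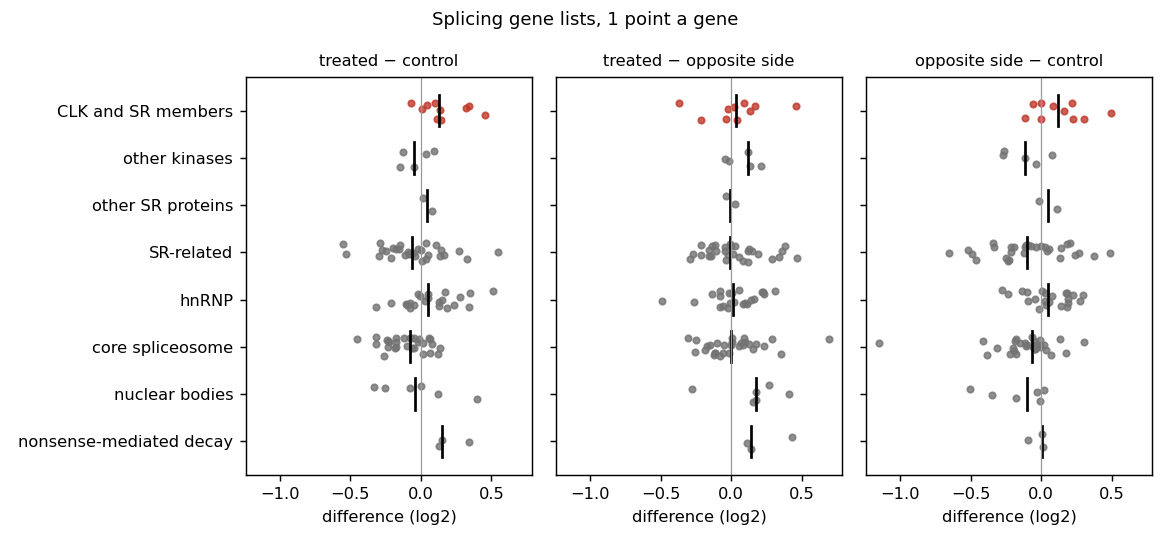
Difference of pool means (log2, x axis) in the 3 comparisons for 1 probe set a gene, by gene list, with a bar at each list's median and the 10 members in red. In treated against control tumours the members' median is 0.13 and those of SR-related and core spliceosome genes are -0.06 and -0.08.

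The genes whose values were most like those of CLK1 were sought among 6994 genes at or above 5 that are no members, by Euclidean distance over the 6 arrays after centring. The nearest were CCNT2, the cyclin T2 subunit of the elongation factor P-TEFb, at 0.05, MAN2B2, a lysosomal mannosidase, at 0.06, and SLC71A2 and STK17B, both at 0.07. CCNT2 was 0.35 higher in treated and 0.27 higher in opposite-side than in control tumours. The genes nearest to SRSF10 225348_at were AFG2A, ANTXR2, FKBP4, a co-chaperone of HSP90, and LIPG, an endothelial lipase, at distances of 0.27 to 0.29. FKBP4 differed by 0.57 in treated against control tumours and by 0.77 in treated against opposite-side tumours. With 3 pools, a small distance says only that the pools fell in a like order by like amounts.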

How the data were processed

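The 6 arrays are Affymetrix HG-U133 Plus 2.0 and carry RNA from 3 pools of HT-29 xenograft tissue, 2 arrays a pool. The deposited values are log2 expression, read from their range, made with GCRMA (background correction, normalization across arrays and summary of each probe set), per the submitters' processing notes, which name no version. All 54675 probe sets were used as deposited, with genes from the platform annotation (41097 name 1 gene, 1801 several, 11777 none) and RefSeq symbols. The lowest value was 2.37. Arrays have no depth, and their number limits the precision. Each pool was summarised by the mean of its arrays, and the size rule of the text was run over the 12340 probe sets with a 6-array mean at or above 5. The genes named were all members, up to 4 genes of each list with the largest absolute difference of their brightest probe set, and the 4 genes most like CLK1 and the member probe set with the largest treated minus control difference among those at or above 5. Of the lists, endothelium (1 of 5 markers at or above 5) and leukocyte (1 of 5) served as further checks. Their summed linear levels were 55.6 to 55.7 and 3624 to 3672 in treated tumours, 52.9 to 53.2 and 3406 to 3496 in opposite-side tumours, and 56.0 to 57.4 and 3059 to 3168 in control tumours. The leukocyte level rests on LYZ, with PTPRC, CD14, CD3E and MS4A1 below 5 in every pool. Whether LYZ was read from host or HT-29 cells was not tested. The members and lists were chosen with earlier results of these data known. limma was run with and without the replicate number as a block, and same-numbered arrays did not deviate together (correlations of -0.0044, 0.0100 and 0.0162). The size rule and limma were tested on simulated data. The values were computed in Python 3.11.15 with pandas 2.3.3 and numpy 2.4.6, the figures were drawn with matplotlib 3.10.9, and limma 3.58.1 ran in R 4.3.3.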

Additional observations from a re-analysis of the deposited data

How the results depend on the processing

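With 1 pool a group, nothing here measures the spread between animals. Counts past 1 stayed at 0 in treated against control and opposite-side against control tumours under every alternative. The 1 probe set past 1 in treated against opposite-side tumours fell to 0 with a floor of 6, quantile normalization, arrays set to the same median, arrays set to the same spike-in median, or without SRSF10 225348_at (the probe set with the largest treated minus control difference among members at or above 5), and ranged over 0 to 1 when each array was left out. Counts past 0.5 were 3 in treated minus control (2 higher, 1 lower), 4 in treated minus opposite and 3 in opposite minus control. A floor of 4 gave 5 in treated minus control, 2 higher and 3 lower, and 5 and 4 in the other comparisons. A floor of 6 gave 2, 3 and 3, and spike-in scaling 3, 5 and 4. Quantile normalization and arrays set to the same median each gave 3, 4 and 4. The counts were 1, 2 and 1 without _x_at and _s_at probe sets, where 6 remained. They stayed at 3, 4 and 3 in limma with the replicate block and without it. limma was run on technical arrays of 1 pool a group, so it measures array error only and is no test between conditions. The members' medians were 0.19, 0.02 and 0.15. They became 0.14, -0.0188 and 0.0895 with a floor of 4, 0.066, -0.013 and 0.074 with no filter, 0.15, 0.0063 and 0.13 with quantile normalization, and 0.315, 0.29 and -0.0697 without _x_at and _s_at probe sets. The floor of 6 gave 0.14 in treated minus control. Equal medians gave -0.004 in treated minus opposite and 0.19 in opposite minus control, and spike-in scaling gave -0.17 and 0.33. Leaving out chosen probe sets was added after seeing the data. Without the MIR636 probe sets the medians of treated and opposite-side against control were 0.164 and 0.0882, and without SRSF10 225348_at or without SRSF1 227164_at, with 2 of its pool means under 5, that of treated against control was 0.17. Leaving out 1 array gave 0.14 to 0.18, 0.020 to 0.036 and 0.10 to 0.16. The causes were not tested. Of 86 values for single genes in each comparison, 8, 12 and 7 changed sign. At the brightest probe set 0 of the 10 genes passed 0.5 in any comparison, so no called value could change sign.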
